A study of Mus musculus with 6 samples.

Results

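The Hox genes are the 39 genes of the deposited table whose symbol is that of a numbered member of the HoxA, HoxB, HoxC or HoxD cluster, out of 24972 gene symbols in all. The members were taken by symbol, with no limit on their values. The table holds 11 HoxA, 10 HoxB, 9 HoxC and 9 HoxD genes. The RNA-Seq measured mRNA of P7 lung endothelial cell isolates (iLECs) in 3 libraries of control mice and 3 of *Atp6ap2* iECKO mice, the latter called mutants where short. *Atp6ap2* encodes an accessory subunit of the vacuolar proton pump that is also known as the prorenin receptor. Control samples carried the floxed *Atp6ap2* allele on the X chromosome (fl/Y in the labels) without Cre. *Atp6ap2* iECKO samples carried the same allele and *Cdh5-CreERT2*, a Cre recombinase that tamoxifen activates and that the promoter of the endothelial gene *Cdh5* drives, so deletion was aimed at endothelial cells and not at other cells of the lung. Mice of both genotypes received tamoxifen (100 μg) on P1 to P3, and the labels give the strain as C57BL/6 while the methods describe a mixed CD1 and C57BL/6 background. The cells were taken from digested lungs with magnetic beads that carry an antibody to CD31, so an isolate can hold other lung cells beside endothelial cells. The paper checked purity on immunoblots. It reports VE-cadherin protein only in iLECs, and smooth muscle actin and desmin in the fraction of other cells.

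Hox genes encode transcription factors that bind DNA through the homeodomain, and in mammals they lie in 4 clusters on different chromosomes. Genes at matching places of different clusters form a paralog group, and the order of the groups along a cluster follows the order in which the genes are used from head to tail of the embryo. Tissues keep much of this positional pattern after birth, and in the lung the mesenchyme is a known site of Hox expression, with *Hoxa5* required for normal lung development. The HoxA cluster lies on chromosome 6 of GRCm38, HoxB on chromosome 11, HoxC on chromosome 15 and HoxD on chromosome 2, and they span 105.3, 173.9, 115.8 and 96.8 kb from the first to the last Hox gene.

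The homeobox, the stretch of 180 bases that encodes the homeodomain, was found in the coding sequence of each of the 39 genes. It is shown for *Hoxa5*, *Hoxb6* and *Hoxd8*, which passed the test between genotypes, and for *Hoxb8*, the paralog of *Hoxd8*, because these sequences show how much alike the members are that the reads had to tell apart. The capitals mark the codons of the conserved core of the recognition helix, the part of the homeodomain that lies in the major groove of DNA. The sequences are GENCODE M21 transcript sequences, 5′ to 3′, at GRCm38 chr6:52202632-52202811 (minus strand, *Hoxa5*), chr11:96300689-96300868 (plus strand, *Hoxb6*), chr11:96284174-96284353 (plus strand, *Hoxb8*) and chr2:74706525-74706704 (plus strand, *Hoxd8*).
Hoxa5: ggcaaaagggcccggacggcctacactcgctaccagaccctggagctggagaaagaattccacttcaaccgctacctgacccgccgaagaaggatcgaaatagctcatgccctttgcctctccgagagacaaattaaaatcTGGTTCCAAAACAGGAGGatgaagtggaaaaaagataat
Hoxb6: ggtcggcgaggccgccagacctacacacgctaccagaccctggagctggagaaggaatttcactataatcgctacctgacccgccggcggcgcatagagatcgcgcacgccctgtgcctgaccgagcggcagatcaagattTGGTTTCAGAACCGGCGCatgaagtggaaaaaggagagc
Hoxb8: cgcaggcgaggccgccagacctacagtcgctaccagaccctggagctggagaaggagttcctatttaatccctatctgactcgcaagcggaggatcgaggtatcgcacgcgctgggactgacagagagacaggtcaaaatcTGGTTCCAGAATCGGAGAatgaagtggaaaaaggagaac
Hoxd8: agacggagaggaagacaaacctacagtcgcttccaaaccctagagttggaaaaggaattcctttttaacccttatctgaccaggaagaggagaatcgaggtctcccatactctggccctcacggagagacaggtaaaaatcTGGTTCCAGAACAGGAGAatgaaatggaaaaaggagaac
The homeoboxes of *Hoxb8* and *Hoxd8* had 80.6% of their bases in common. Over the 18 genes tested, the homeoboxes of 11 pairs from one paralog group were 74.4% to 93.9% identical, and those of the 142 other pairs 53.9% to 88.9%. The longest stretch that any of 16 tested genes shared exactly with any other Hox gene was between 24 and 52 bases. *Hoxd3* and *Hoxd4* were the exception, as their annotated transcripts have 388 exon bases in common on the same strand. Reads from that stretch could be counted for either gene. On that strand *Gm28230* also covers 53.1% of the exon bases of *Hoxd3* and 39.1% of those of *Hoxd4*. The deposited symbols do not include *Gm28230*.

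The 250 bases before the annotated start are shown for *Hoxa5*, the Hox gene with the highest level in these libraries and lower in *Atp6ap2* iECKO iLECs, and for *Hoxd8*, the gene that was higher. They are RefSeq sequences on GRCm38.p6, 5′ to 3′ on the gene's own strand, at chr6:52204588-52204837 (minus strand, *Hoxa5*) and chr2:74704365-74704614 (plus strand, *Hoxd8*). Capitals mark matches to 5 motifs searched on both strands, TGATNNAT (Hox with Pbx), TGACAG (Meis and Pknox), AGGTCA (the core of a retinoic acid receptor site), TATAAA and CCAAT.
Hoxa5 promoter: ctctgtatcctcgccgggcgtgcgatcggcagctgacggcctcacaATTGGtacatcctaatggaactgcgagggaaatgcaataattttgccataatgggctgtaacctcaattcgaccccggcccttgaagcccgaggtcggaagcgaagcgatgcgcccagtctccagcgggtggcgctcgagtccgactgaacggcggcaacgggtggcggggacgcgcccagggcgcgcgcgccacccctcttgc
Hoxd8 promoter: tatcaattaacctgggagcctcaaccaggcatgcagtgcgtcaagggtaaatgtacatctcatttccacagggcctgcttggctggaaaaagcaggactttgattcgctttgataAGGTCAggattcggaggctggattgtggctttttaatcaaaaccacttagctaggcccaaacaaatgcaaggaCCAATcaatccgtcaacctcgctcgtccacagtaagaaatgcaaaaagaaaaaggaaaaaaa
The *Hoxa5* stretch is 63.6% G or C and held 1 CCAAT match, on the opposite strand. The *Hoxd8* stretch is 44.4% G or C and held 1 AGGTCA and 1 CCAAT match. Of 32851 promoter stretches of the same length, 14.0% held AGGTCA, 33.8% CCAAT, 12.4% TATAAA, 15.9% TGACAG and 7.7% TGATNNAT, and their median G or C content was 52.4%. RefSeq promoters were matched for 11 of the 18 tested Hox genes.

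Hox transcripts were detected above a low limit from part of each of 3 clusters. The deposited values, called normalized counts here, are counts estimated and scaled by the authors. Of the 39 Hox genes, 18 reached 10 normalized counts in 3 or more of the 6 libraries and were tested. A further 13 were listed at 0 in every library, and 8 were above 0 in at least 1 library but below that limit, the highest value among them being 10.6 for *Hoxb9*. A single read was worth about 1.5 to 2.3 normalized counts in these libraries, judged from the commonest low value, so a value of 10 stood for about 4 to 7 reads.

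The tested genes were 7 of 11 in HoxA, 7 of 10 in HoxB, 0 of 9 in HoxC and 4 of 9 in HoxD. In HoxA they included every gene from *Hoxa2* to *Hoxa7*, and in HoxB they formed an unbroken run from *Hoxb2* to *Hoxb8*. In HoxD they were *Hoxd3*, *Hoxd4*, *Hoxd8* and *Hoxd9*, which are consecutive genes of that cluster. In HoxC, 8 genes were listed at 0 in all 6 libraries, and *Hoxc13* had 1.51 in *Atp6ap2* iECKO replicate 2 and was listed at 0 in the others. By paralog group, 17 of the 23 genes of groups 1 to 8 were tested and 1 of the 16 genes of groups 9 to 13, *Hoxd9*. The posterior genes above 0 but below the limit were *Hoxa9*, *Hoxa10*, *Hoxa13*, *Hoxb9*, *Hoxc13* and *Hoxd10*. Of these *Hoxd10*, next to *Hoxd9* in its cluster, was above 0 in every library, at 2.28, 2.34 and 4.54 in controls and at 3.79, 7.50 and 7.44 in *Atp6ap2* iECKO iLECs. *Hoxb1* and *Hoxd1*, the first genes of their clusters, reached at most 1.87 and 1.51.

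Levels of different genes were compared per kb of annotated exon, in control libraries. *Hoxa5* stood first with 1625 ± 283 normalized counts per kb (SD, n = 3), from 1303 in replicate 1 to 1837 in replicate 3. *Hoxb4* (351 ± 42.3), *Hoxa2* (298 ± 72.3), *Hoxb3* (267 ± 40.6) and *Hoxa3* (238 ± 13.5) followed, and neighbours in this order from *Hoxb4* to *Hoxa3* overlapped in the ranges of their 3 libraries. The lowest *Hoxa5* library was above the highest library of each of these 4 genes. *Hoxb5* (183 ± 13.4), *Hoxa4* (133 ± 27.8) and *Hoxb2* (133 ± 8.25) came next, below the ranges of the first 5, with *Hoxa4* and *Hoxb2* overlapping.

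A gap separated these 8 genes from the other 10. *Hoxb6* (44.9 ± 11.4) and *Hoxa6* (42.1 ± 12.2) overlapped, and all others had a mean under 20 per kb, down to *Hoxd3* (2.95 ± 1.99) and *Hoxd4* (2.31 ± 2.63). Levels therefore fell within HoxA from group 5 to group 7 and within HoxB from group 4 to group 8. Taken per kb of the longest coding transcript instead of all annotated exons, *Hoxa3* rose from the fifth to the second place at 553 per kb, because its annotated exons include 6014 bases and its longest coding transcript 2591, while *Hoxa5* remained first.

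**Figure D1:**
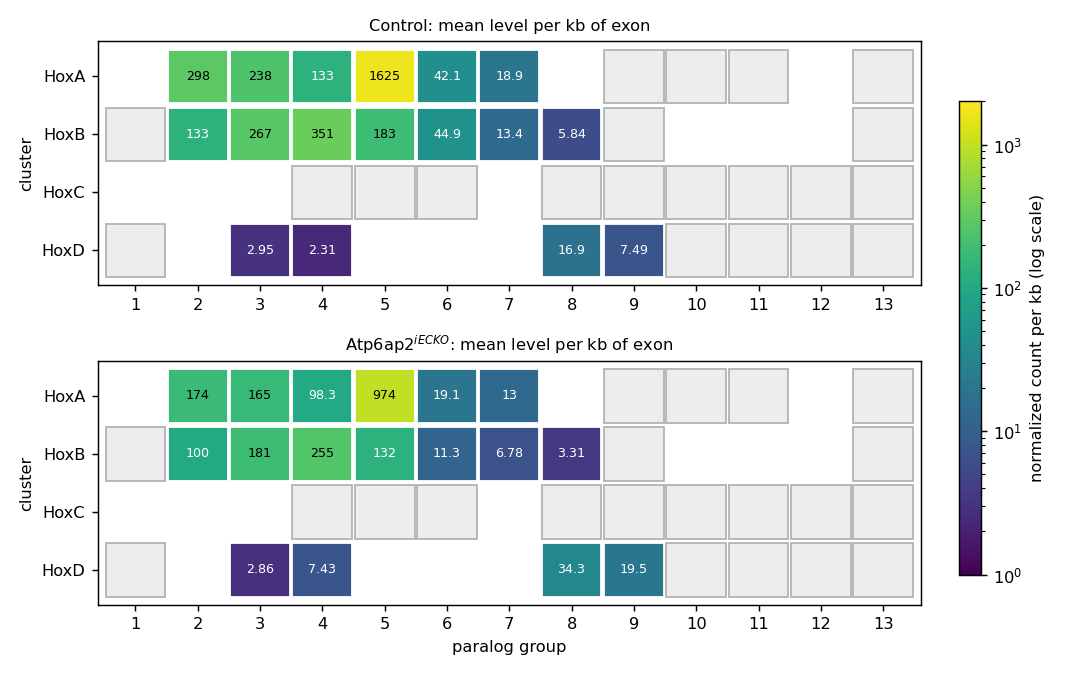
Mean normalized count per kb of exon (colour, log scale, with the value printed in each box) of 17 tested Hox genes in 3 control libraries (top) and 3 *Atp6ap2* iECKO libraries (bottom), by cluster and paralog group. Grey boxes are genes of the table that were not tested, and blank places have no gene shown. Coloured boxes fill groups 2 to 7 of HoxA and 2 to 8 of HoxB, none of HoxC and 4 places of HoxD, with *Hoxa5* highest in both genotypes (1625 and 974).

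The comparison between genotypes asks how Hox expression differed after deletion of *Atp6ap2*. The deleted gene itself had normalized counts of 7490, 5815 and 5681 in controls and of 4220, 2336 and 1982 in *Atp6ap2* iECKO iLECs, with a log2 fold change of -1.22 (limma adjusted *P* = 0.0306). Of the 18 Hox genes tested, 4 were lower in *Atp6ap2* iECKO iLECs, *Hoxa3*, *Hoxa5*, *Hoxb3* and *Hoxb6*, and 1 was higher, *Hoxd8* (limma on log2 of the normalized count plus 1, Benjamini-Hochberg adjusted *P* below 0.05 over 14456 genes). Of all genes tested, 4.97% were lower and 3.28% higher by the same rule. Over all genes tested, 49.3% had a negative log2 fold change. The Hox estimates divided by cluster, negative for all 14 HoxA and HoxB genes and positive for all 4 HoxD genes. Among the latter, *Hoxd3* overlapped between genotypes and its mean normalized count was slightly lower in *Atp6ap2* iECKO iLECs (12.0 against 12.4 in controls), and *Hoxd4* was tested largely through the genotype in which it was high. Without adjustment, 12 of the 18 had a *P* value below 0.05, against 3453 of the 14456 genes. The number of lower Hox genes was 4 without control replicate 1, 2 without control replicate 2 and 0 without control replicate 3, and 3, 1 and 0 without *Atp6ap2* iECKO replicates 1, 2 and 3, while over all genes 176 to 659 were lower in these refits instead of 719. The call of *Atp6ap2* was kept in 1 of the 6 refits, without *Atp6ap2* iECKO replicate 1. In bulk RNA, fewer cells of a type and less RNA per cell cannot be told apart.

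The normalized counts of the 3 *Atp6ap2* iECKO libraries were all below those of the 3 control libraries for 9 Hox genes, and this was so for 15.0% of all genes tested. They were all above for 3 Hox genes, *Hoxd4*, *Hoxd8* and *Hoxd9*, and for 14.7% of all genes tested. *Hoxd4* reached the limit of 10 in 1 control and 3 mutant libraries, so its place among these 3 follows in part from the limit. The genotypes overlapped for the other 6. Over the 18 Hox genes the median log2 fold change was -0.47, and it was -0.53 over HoxA and -0.55 over HoxB, beside 0.00 over all genes tested. The median of a cluster describes neighbouring genes with shared libraries, not independent samples.

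**Figure D2:**
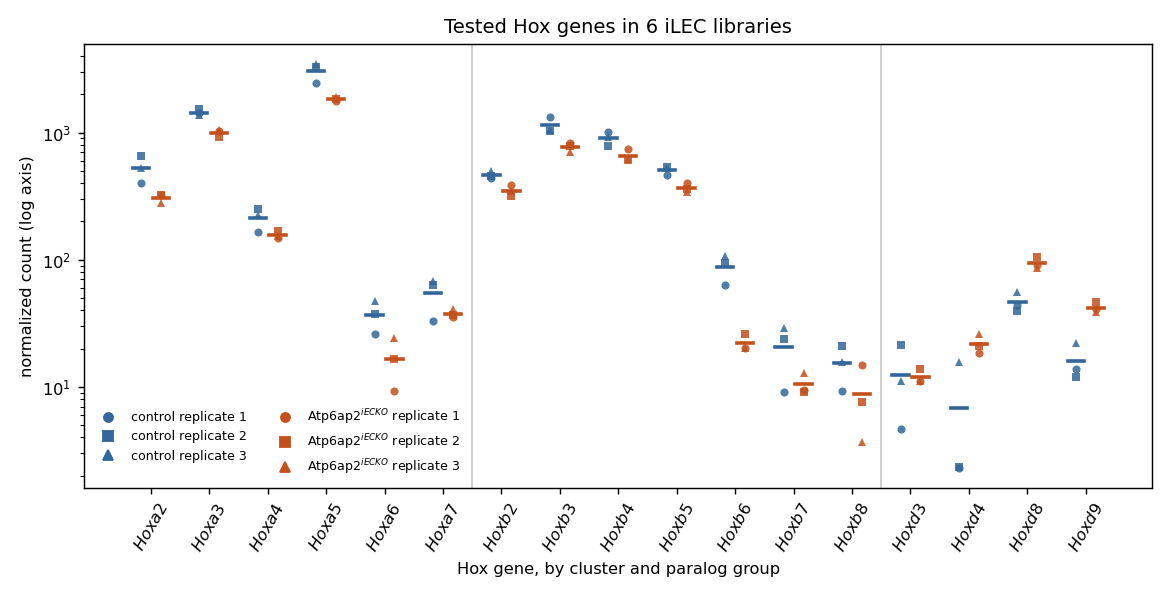
Normalized count (log axis) of 17 tested Hox genes in each library, controls in blue and *Atp6ap2* iECKO in orange, with a bar at the mean of each genotype and a symbol for each replicate number. For 9 HoxA and HoxB genes the orange symbols sit below the blue ones, and for *Hoxd4*, *Hoxd8* and *Hoxd9* they sit above.

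In HoxA, *Hoxa5*, a regulator of lung and airway development, had normalized counts of 2446, 3256 and 3448 in controls and of 1755, 1826 and 1900 in *Atp6ap2* iECKO iLECs. All *Atp6ap2* iECKO libraries were below the lowest control, and the controls differed more among themselves than the mutants. The mean fell by 40.1%, with a log2 fold change of -0.72 (standard error 0.13, limma adjusted *P* = 0.0192). *Hoxa3*, which patterns organs of the pharynx and has been studied in migrating endothelial cells, had 1413, 1523 and 1365 in controls and 1029, 915 and 1040 in *Atp6ap2* iECKO iLECs. The genotypes were again apart, and the log2 fold change was -0.53 (standard error 0.09, limma adjusted *P* = 0.0180). The call of *Hoxa5* was lost without control replicate 2 or 3 or *Atp6ap2* iECKO replicate 2 or 3 (limma adjusted *P* = 0.0508 to 0.0691), and that of *Hoxa3* without control replicate 3 or *Atp6ap2* iECKO replicate 2 or 3 (0.0510 to 0.0778). Exons of *Hoxa3* share 8.4% of their bases with the antisense gene *Hoxaas2* and 4.9% with *Hoxaas3*, and the library kit does not mark the strand. They also share bases with annotated genes that the deposited symbols do not include, at most 8.0% with *Gm28308*.

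*Hoxa2*, which specifies identity in the hindbrain and second pharyngeal arch, had 399, 656 and 529 in controls and 325, 323 and 277 in *Atp6ap2* iECKO iLECs. The groups did not overlap, but control replicate 1 lay closer to the mutants than to the other controls, and the test did not pass (log2 fold change -0.75, 95% interval -1.19 to -0.31, limma adjusted *P* = 0.0512). Without control replicate 1 it passed (log2 fold change -0.94, limma adjusted *P* = 0.0210). It did not pass with any other library left out (limma adjusted *P* = 0.0855 to 0.174). *Hoxa6* had 25.8, 37.5 and 47.2 in controls and 9.24, 16.6 and 24.1 in *Atp6ap2* iECKO iLECs, with a log2 fold change of -1.15 and an interval of -2.19 to -0.12 (limma adjusted *P* = 0.164). *Hoxa4* and *Hoxa7* overlapped between genotypes, with log2 fold changes of -0.42 (interval -0.88 to 0.04) and -0.47 (interval -1.26 to 0.33). Of the exon bases of *Hoxa7*, 20.4% are shared with the antisense gene *Hoxaas3*.

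In HoxB, *Hoxb6* had the largest fall of all tested Hox genes. Its normalized counts were 63.3, 94.8 and 107 in controls and 20.3, 26.1 and 20.1 in *Atp6ap2* iECKO iLECs, or about 28 to 47 reads against 11 to 17. Every mutant library was below every control, the mean fell by 74.9%, and the log2 fold change was -1.92 (95% interval -2.64 to -1.20, limma adjusted *P* = 0.0142). The call was lost without control replicate 3 (0.0599) or *Atp6ap2* iECKO replicate 3 (0.0602). *Hoxb6* went from the ninth to the fourteenth place in the order of levels per kb, from 44.9 ± 11.4 to 11.3 ± 1.75 (SD, n = 3). *Hoxb3* had 1335, 1034 and 1038 in controls and 822, 781 and 706 in *Atp6ap2* iECKO iLECs, without overlap (log2 fold change -0.55, standard error 0.13, limma adjusted *P* = 0.0385). Its call was lost with any 1 of the 6 libraries left out (0.0551 to 0.141). Of its exon bases, 52.9% are shared with the antisense gene *Hoxb3os*, whose own row had 57.0, 62.5 and 70.9 in controls and 60.4, 48.7 and 34.9 in *Atp6ap2* iECKO iLECs.

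*Hoxb2*, *Hoxb4* and *Hoxb5*, the other HoxB genes with high levels, had no overlap between genotypes and did not pass the test. *Hoxb4*, which is known for its part in blood stem cells, had 1000, 785 and 916 in controls and 738, 617 and 607 in *Atp6ap2* iECKO iLECs (log2 fold change -0.46, 95% interval -0.76 to -0.16, limma adjusted *P* = 0.0699). *Hoxb5*, which is expressed in lung mesenchyme and in endothelial precursors, had 467, 535 and 528 against 399, 363 and 343 (log2 fold change -0.47, interval -0.75 to -0.19, limma adjusted *P* = 0.0566). *Hoxb2* had 438, 456 and 494 against 384, 316 and 349 (log2 fold change -0.41, interval -0.70 to -0.11, limma adjusted *P* = 0.0983). It shares 27.3% of its exon bases with the antisense gene *Hoxb3os*. The log2 fold changes of *Hoxb2*, *Hoxb3*, *Hoxb4* and *Hoxb5* lay between -0.55 and -0.41. *Hoxb7* and *Hoxb8* were near the limit of detection, between 3.71 and 29.2 in all libraries, and overlapped between genotypes.

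In HoxD, *Hoxd8* had normalized counts of 44.0, 39.3 and 56.2 in controls and of 91.6, 104 and 86.5 in *Atp6ap2* iECKO iLECs. The lowest mutant was above the highest control, and the mean rose by 102.4%, with a log2 fold change of 1.01 (95% interval 0.44 to 1.59, limma adjusted *P* = 0.0471). This call lay close to the threshold and was lost with any 1 of the 6 libraries left out, when the adjusted *P* was 0.0750 to 0.171 and the log2 fold change 0.90 to 1.15. *Hoxd9* had 13.9, 12.0 and 22.0 in controls and 40.6, 46.2 and 38.5 in *Atp6ap2* iECKO iLECs, also without overlap, and missed the threshold (log2 fold change 1.37, interval 0.54 to 2.20, limma adjusted *P* = 0.0562). These values stood for about 5 to 10 reads in controls and 21 to 31 in mutants. In the order of levels per kb *Hoxd8* moved from the thirteenth place to the ninth and *Hoxd9* from the fifteenth to the tenth.

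*Hoxd4* had 2.32, 2.35 and 15.8 in controls and 18.6, 21.1 and 26.0 in *Atp6ap2* iECKO iLECs. Control replicate 3 lay nearer to the mutants than to the other controls (log2 fold change 1.99, interval 0.39 to 3.59, limma adjusted *P* = 0.128). *Hoxd3*, with which it shares exon bases, had 4.65, 21.2 and 11.2 against 11.1, 13.7 and 11.1 and overlapped (log2 fold change 0.16, interval -1.16 to 1.49). The sign of the *Hoxd3* estimate turned without control replicate 1 (-0.35). The depth of the libraries, as judged from the commonest low value, differed in the same direction as the HoxD genes. By this estimate 1 read was worth 2.26 to 2.34 normalized counts in controls and 1.51 to 1.87 in *Atp6ap2* iECKO libraries. Low genes were thus sampled with fewer reads in controls. The part of depth in the HoxD values was not tested.

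**Figure D3:**
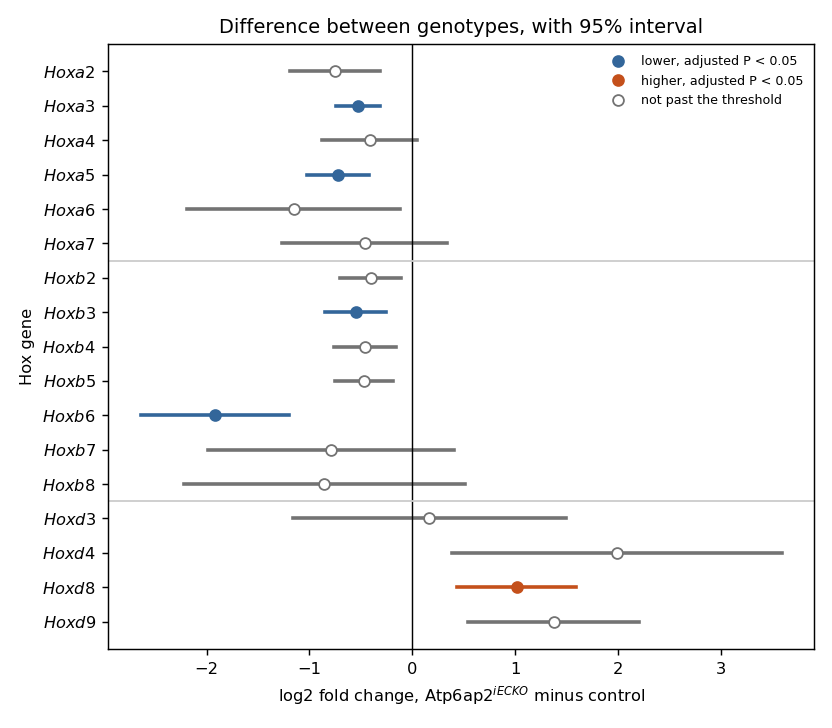
Log2 fold change of 17 tested Hox genes, *Atp6ap2* iECKO minus control, with its 95% interval from limma, in the order of clusters and paralog groups. Filled points passed an adjusted *P* of 0.05, blue for lower and orange for higher. All HoxA and HoxB points lie left of 0, from -1.92 to -0.41, and all HoxD points right of it, from 0.16 to 1.99.

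Paralogs in different clusters can be set side by side. In group 3, *Hoxa3* and *Hoxb3* had log2 fold changes of -0.53 and -0.55 and *Hoxd3* of 0.16. In group 4 they were -0.42 for *Hoxa4*, -0.46 for *Hoxb4* and 1.99 for *Hoxd4*, and in group 8 -0.86 for *Hoxb8* and 1.01 for *Hoxd8*. *Hoxb8* did not pass (95% interval -2.22 to 0.51, limma adjusted *P* = 0.433), at about 2 to 9 reads, and its estimate was -0.42 without *Atp6ap2* iECKO replicate 3 and -1.30 without *Atp6ap2* iECKO replicate 1. That of *Hoxd4* was 1.60 without control replicate 1 or 2 and 2.77 without control replicate 3. In group 6, *Hoxa6* and *Hoxb6* were both low in controls and had the most negative estimates of their clusters, -1.15 and -1.92. No test of the difference between paralogs was made, and the members of a group were compared in the same 6 libraries.

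Summed over a cluster, HoxA genes had 4521, 5828 and 5720 normalized counts in controls and 3327, 3312 and 3493 in *Atp6ap2* iECKO iLECs, a ratio of means of 0.63. HoxB genes had 3324, 2957 and 3133 against 2394, 2131 and 2043, a ratio of 0.70. HoxD genes had 67.2, 77.2 and 110 against 166, 194 and 169, a ratio of 2.08. In each of these 3 sums the genotypes did not overlap. HoxD made up 0.85% to 1.22% of all Hox counts in controls and 2.82% to 3.45% in *Atp6ap2* iECKO iLECs. *Hoxa5* alone made up 30.9% to 38.5% and 29.8% to 33.3%, and the other HoxA genes together had a ratio of 0.67. The sums are descriptions, and no *P* value was computed for them.

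Markers of other lung cell types moved with genotype in the same libraries. Of 17 tested fibroblast markers, 14 were lower in *Atp6ap2* iECKO iLECs and 0 higher, beside 4.97% and 3.28% of all genes tested. Their sum ranged from 232497 to 290260 in controls and from 120856 to 174935 in mutants. Of 16 mural and smooth muscle markers, 8 were lower and 0 higher, beside the same shares of all genes. Their sums were 14079 to 21401 in controls and 5876 to 7455 in mutants. None of the markers of these 2 lists was listed at 0 in every library. *Tcf21* and *Pdgfra*, which define lung fibroblasts, had log2 fold changes of -1.47 and -1.35 (limma adjusted *P* = 0.0212 and 0.0153), and *Pdgfrb*, a pericyte receptor, of -1.54 (limma adjusted *P* = 0.00831). *Acta2*, the smooth muscle actin, missed the threshold at -1.45 (limma adjusted *P* = 0.0504). Median log2 fold changes were -1.50 for the fibroblast and -1.48 for the mural list, larger falls than the -0.53 and -0.55 of HoxA and HoxB.

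The endothelial markers were present at high levels in both genotypes, with sums of 427561 to 543725 in controls and 434272 to 493367 in mutants. Of 18, 1 was lower (*Tek*, -0.53) and 1 higher (*Cd34*, 0.43), beside 4.97% and 3.28% of all genes tested. The median log2 fold change of the list was 0.02. *Cdh5* and *Pecam1*, the gene of CD31, had log2 fold changes of 0.07 and 0.12 (limma adjusted *P* = 0.853 and 0.599). Of 14 epithelial markers 1 was higher, *Scgb1a1*, and 0 were lower, beside 3.28% and 4.97% of all genes tested. Their highest sum was in control replicate 3 (81441, against 32192 to 46773 in the other 5 libraries). Of the leukocyte (14 tested), mesothelial (3) and lymphatic endothelial (5) markers none passed in either direction. The part of other cell types in the Hox differences was not tested. *Xist*, transcribed from the inactive X chromosome, had 37704 to 47487 in 4 libraries, 31.7 in control replicate 3 and 19.3 in *Atp6ap2* iECKO replicate 2, although the labels give fl/Y for all 6. With the presence of *Xist* as a covariate, *Hoxa3*, *Hoxa5* and *Hoxb6* passed and *Hoxb3* (limma adjusted *P* = 0.0612) and *Hoxd8* (0.0620) did not.

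**Figure D4:**
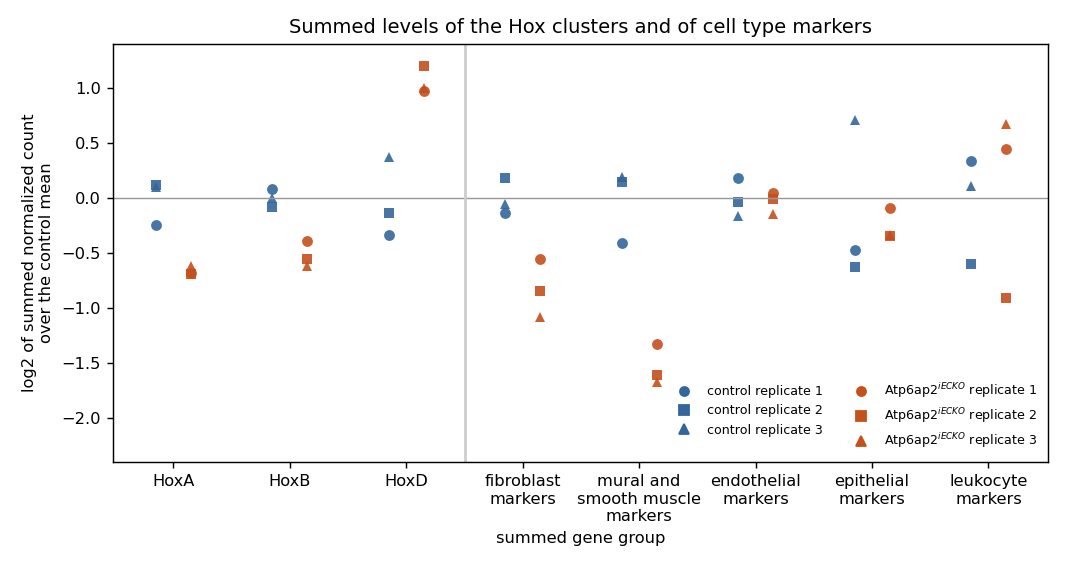
Log2 of the summed normalized count in each library over the control mean of that sum, for 3 Hox clusters (left of the line) and 5 lists of cell type markers (right), with controls in blue and *Atp6ap2* iECKO in orange. The HoxA, HoxB, fibroblast and mural sums of the mutants lie below all controls, the HoxD sums lie above, and the endothelial, epithelial and leukocyte sums overlap.

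Hox proteins bind DNA together with cofactors of the TALE class of homeodomain proteins. Of 8 TALE genes tested, 1 was lower in *Atp6ap2* iECKO iLECs and 0 higher, beside 4.97% and 3.28% of all genes tested. *Pbx3*, *Meis1* and *Meis2* had log2 fold changes of -0.06, 0.02 and -0.27 and did not pass. The median over the list was -0.26.

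Polycomb proteins keep Hox genes silent outside their domain, and MLL and trithorax group proteins keep them active. Of 21 Polycomb genes tested, 2 were higher and 0 lower, beside 3.28% and 4.97% of all genes tested. *Phf19*, an accessory subunit of Polycomb repressive complex 2, had 119, 219 and 133 in controls and 327, 296 and 365 in mutants (log2 fold change 1.11, limma adjusted *P* = 0.0335). *Cbx2*, a chromodomain subunit of Polycomb repressive complex 1, had 282, 311 and 296 against 429, 655 and 714 (log2 fold change 0.98, limma adjusted *P* = 0.0256). For both genes every mutant library was above every control. Of 12 MLL and trithorax group genes 1 was higher, the core subunit *Wdr5* (log2 fold change 0.44, limma adjusted *P* = 0.0242), and 0 were lower. The medians of the lists were -0.04 and 0.07.

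Retinoic acid is an inducer of anterior Hox genes. Tested genes of its pathway had a median log2 fold change of -0.30. Of these 14, 3 were lower in *Atp6ap2* iECKO iLECs and 0 higher, beside 4.97% and 3.28% of all genes tested. Among them were the binding protein *Crabp1* (log2 fold change -2.24, limma adjusted *P* = 0.0323) and the degrading enzyme *Cyp26b1* (log2 fold change -1.16, limma adjusted *P* = 0.0178). *Cyp26b1* had 2265, 2458 and 2016 in controls and 724, 1322 and 1057 in mutants. The receptor gene *Rarb* had a log2 fold change of -0.15 (limma adjusted *P* = 0.735), and the synthesis enzyme *Aldh1a2* was not tested, with at most 2.30 in any library.

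**Figure D5:**
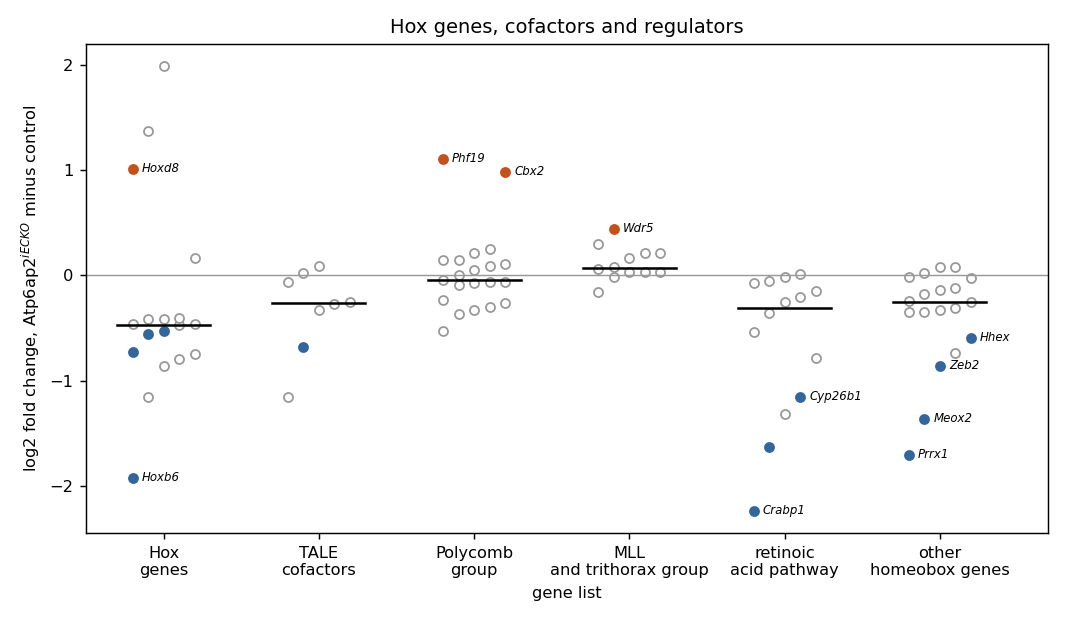
Log2 fold change, *Atp6ap2* iECKO minus control, of the tested genes of the Hox clusters and of 5 lists of cofactors, regulators and other homeobox genes, with a black bar at the median of each. Filled points passed an adjusted *P* of 0.05. Names stand only beside filled points, and some of these, such as *Hoxa3*, *Hoxa5* and *Hoxb3*, carry none. The medians of the lists are between -0.30 and 0.07, and that of the Hox genes is -0.47.

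Homeobox genes outside the clusters share the DNA-binding domain with Hox genes. Of 19 tested, with a median log2 fold change of -0.25, 4 were lower and 0 higher, beside 4.97% and 3.28% of all genes tested. The 4 were *Prrx1* (-1.71), a mesenchymal factor, *Meox2* (-1.36), *Zeb2* (-0.86) and *Hhex* (-0.59). *Meox2*, known from mesoderm and from vascular endothelium, had 542, 1003 and 1017 in controls and 301, 383 and 283 in mutants, without overlap (limma adjusted *P* = 0.0212). Of the axial regulators and ParaHox genes only *Gdf11* was tested, and it did not pass (-0.62, limma adjusted *P* = 0.0630).

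The table also holds 23 other genes, mostly noncoding, inside the clusters or within 60 kb of them. Of these, 15 were listed at 0 in every library and 4 were tested. *Gm15050*, annotated antisense within an intron of *Hoxa3*, had 92.5, 87.7 and 78.5 in controls and 30.9, 36.4 and 48.0 in mutants, without overlap (log2 fold change -1.17, standard error 0.27, limma adjusted *P* = 0.0390). It belonged to no list and was chosen after its values were seen. *Hotairm1*, *Hoxaas2* and *Hoxb3os* had log2 fold changes of -1.02, -0.35 and -0.42 and did not pass. Of 13 genes in a list of genes that flank the clusters, 3 were listed at 0 in every library and 9 were tested. Of these 9, 2 were lower, *Skap2* beside HoxA (-0.49) and *Calcoco1* beside HoxC (-0.58), and 1 higher, *Cbx5* beside HoxC (0.51), with a median of -0.13. By the same rule, 4.97% of all genes tested were lower and 3.28% higher.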

How the data were processed

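The 6 RNA-Seq libraries, 3 for each genotype and described by the study as biological replicates, were grouped by their labels. The authors made libraries with a TruSeq RNA kit that does not mark strand and used tools of the BaseSpace hub to align reads to mm10 and to quantify genes. They deposited 1 table of 24972 symbols whose unit is a normalized signal, an estimated count scaled per library. The labels call the values raw counts. However, they have decimals, and dividing each gene by its geometric mean over libraries gave a median of 1.0036 in all 6. Only 64.4% to 80.7% of low values were whole multiples of the commonest low value, within a tolerance of 0.05. Exact read counts could therefore not be recovered, and no count model was used. Numbers of reads in the Results are values divided by the commonest low value, rough equivalents and not counts. Totals per library were 26243878 to 28725799. Since the number of reads is unknown, counting intervals were left out, and precision rests on the spread of 3 libraries.

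The 14456 genes that reached 10 in 3 or more libraries were tested as log2 of the value plus 1 with limma 3.58.1 in R 4.3.3 (mean-variance trend, both genotypes, no covariate), adjusted by the Benjamini-Hochberg method with a threshold of 0.05. The script was tested on simulated data. All 39 Hox symbols and 24490 of all symbols matched GENCODE M21 (GRCm38, the same assembly as mm10), which gave coordinates, exon lengths and transcript sequences, and RefSeq gave promoters. Homeoboxes were located with Python 3.11.15 and Biopython 1.88, and figures drawn with matplotlib 3.10.9. Named genes were all Hox genes, the members of each list past the threshold (at most 4 by smallest adjusted *P*) and the defining members *Meis1*, *Meis2*, *Pbx3*, *Rarb*, *Aldh1a2*, *Cdh5*, *Pecam1*, *Tcf21*, *Pdgfra*, *Acta2* and *Pdgfrb*, plus genes inside a Hox cluster, and a few items that this rule names are not reported here. The Hox genes and the lists were chosen with earlier results of these data known. Alternatives were other scalings, pseudocounts, filters and thresholds, no trend, the replicate number or *Xist* as a covariate, and each library left out.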

Additional observations from a re-analysis of the deposited data

How the results depend on the processing

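The direction of the estimates changed little where a setting could change it. The filters, the trend and both covariates left each estimate as it was, so these refits could not turn a sign. Of all 262 refits of single tested Hox genes under an alternative, 1 changed sign, 29 lost a call and 7 gained one. The change of sign was in *Hoxd3* without control replicate 1 (-0.35, with 0.64 as the highest value without a library). The number of calls was not stable. Without the mean-variance trend 1 Hox gene was lower instead of 4, at an adjusted *P* below 0.1 there were 8 and below 0.01 there were 0. Over all genes, 235 were lower and 69 higher without the trend, instead of 719 and 474. Leaving out each library gave 0 to 4 lower Hox genes, with 4 without control replicate 1, 2 without control replicate 2, 0 without control replicate 3, and 3, 1 and 0 without *Atp6ap2* iECKO replicates 1, 2 and 3. Over all genes, these refits gave 176 to 659 lower and 28 to 461 higher genes, instead of 719 and 474. The 1 higher gene, *Hoxd8*, became 0 with library size scaling, with no filter, with the *Xist* covariate, at an adjusted *P* below 0.01 and with any library left out (0 to 0), and 2 with a pseudocount of 5 or an adjusted *P* below 0.1, a threshold added for higher genes after the data were seen. *Hoxb6* passed in 13 of 15 alternatives, *Hoxa3* in 11, *Hoxa5* in 10, *Hoxb3* in 7 and *Hoxd8* in 5. The filter of 50 tested 10 Hox genes instead of 18. Library size scaling moved the median of all genes by 0.05. Levels per kb of the longest coding transcript were 356 for *Hoxb3*, 553 for *Hoxa3*, 269 for *Hoxb5*, 284 for *Hoxb2* and 27.1 for *Hoxa7*. The fall of *Atp6ap2* lost its call without the trend (-1.22, adjusted *P* = 0.0917) and in 5 of 6 refits without a library. Over all 6 of these the log2 fold change was -1.54 to -1.0, and the refit at -1.54, without *Atp6ap2* iECKO replicate 1, kept the call. The genotypes share replicate numbers in the labels, and it could not be told whether these pair the samples. Deviations of same-numbered libraries correlated by 0.25, 0.11 and 0.08 across genes. Those of differently numbered libraries correlated by -0.21 to 0.10, and control replicate 3 correlated better with *Atp6ap2* iECKO replicate 2 (0.10) than with replicate 3. With the replicate number as a replicate block, 6 Hox genes were lower and 0 higher, against 4 and 1 without it. Over all genes, 838 were lower and 670 higher with the block, against 719 and 474. Low depth limits *Hoxb7*, *Hoxb8*, *Hoxd3*, *Hoxd4* and the genes that were not tested. Counts of 0 calls in these refits are from limma, and the cause of each lost call was not tested.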
